A study of Mus musculus with 5 samples.

Results

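Lysosomes are the acidic compartments in which macrophages break down what they engulf. A proton pump acidifies them, soluble proteases, glycosidases and lipid hydrolases do the digestion, and heavily glycosylated membrane proteins line and shape the organelle. In macrophages the same proteases also trim antigens for display on class II molecules. Many genes of this compartment share a short promoter sequence around CACGTG, which transcription factors of the TFEB family can bind. Here 37 genes of this compartment were followed: 14 proteases and related enzymes (the cathepsins, legumain, the thiol reductase Ifi30 and tripeptidyl peptidase Tpp1), 8 glycosidases, 5 lipid hydrolases and lipid carriers, 5 membrane proteins and 5 subunits of the proton pump. They were taken from a list of gene symbols, through every probe set that the platform annotation gives to one of them. That gave 77 of the 45037 probe sets, and 37 of 18193 named genes. Of these 77, 1 carries a second symbol (Ifi30 with Pik3r2).

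The samples were CD11b+ macrophages sorted on day 8 from subcutaneous Matrigel plugs in adult Balb/c SCID mice, 7 to 12 weeks old, and all hosts carried a transgenic T-cell receptor specific for the idiotype of MOPC315, a mouse plasma cell tumour line. The SCID mutation blocks the host's own lymphocyte receptors, so T cells bear the transgenic one. Plugs held MOPC315 cells for the 3 samples labelled tumoricidal and an antigen-loss variant of MOPC315 for the 2 labelled control, which the labels also call non-tumoricidal. The labels call the samples of a group biological replicates and do not say how many mice gave each one, and the antigen-loss line differs from MOPC315 in ways that the labels do not list. Affymetrix arrays, 1 per sample, gave a signal intensity per probe set, and the number of arrays limits every value below. The comparison asks whether macrophages that shared a plug with antigen-bearing tumour cells differ from those that did not.

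Median deposited signals lay between 15.4 and 22.6, and each array was scaled to a common median. The probe sets of BioC, a spike-in control (RNA added in known amounts), formed 2 sets of arrays that the labels do not name. Tumoricidal replicate 3 with control replicate 2 are called spike-in set B, and the remaining 3 set A. BioC was at 611 to 685 in A and 167 to 175 in B. The spike-in control Lys went the other way, at 90.9 to 114.9 in A and 191.9 and 215 in B. All 8 macrophage markers listed for this work were measured, and their summed signal was 21670 to 30940 in tumoricidal and 19100 and 25730 in control arrays. The summed signal of the 8 plasma cell or myeloma markers was 506 to 1590 in tumoricidal and 3179 and 3596 in control arrays. The sum of 4 neutrophil markers was higher in tumoricidal arrays (8946 to 10020 against 3819 and 6385). So was that of 3 natural killer cell markers (104 to 243 against 64.7 and 34.7). The 4 T-cell markers summed to 75.8, 882 and 68.0 in tumoricidal arrays against 57.9 and 29.4 in controls. All tumoricidal sums were thus higher there too, with replicate 2 far above the rest. In such bulk samples fewer cells of a type and less RNA per cell cannot be told apart. Of the measured genes of the 10 marker lists, Alas2 of the erythroid list was at the floor, the lowest signal used, on all 5 arrays.

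The members' promoters were searched for this sequence first, since it is the one shared feature known for many lysosomal genes. RefSeq promoters (assembly GRCm38.p6) were at hand for 30 members, as 33 sequences, and the 250 bases before each annotated start were searched on both strands. CACGTG, which reads the same on both strands, was found in 12 of these 33 promoters (36.4%), against 6.02% of all 32851 promoters of that length and 7.47% of the promoters of named genes on the array. TCACGTG, which contains it, was found in 11 (33.3%), against 3.13% of all. The windows below show the sequence in members of 4 classes, 5′ to 3′ on the gene's own strand, with each CACGTG in capitals; Lamp1 has 4 copies within 73 bases.

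Lamp1 (chr8:13159088-13159160, plus strand): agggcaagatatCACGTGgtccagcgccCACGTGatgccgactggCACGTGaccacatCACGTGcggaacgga

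Mcoln1 (chr8:3500436-3500491, plus strand): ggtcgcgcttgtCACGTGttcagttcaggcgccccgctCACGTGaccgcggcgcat

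Gla (chrX:134601182-134601244, minus strand): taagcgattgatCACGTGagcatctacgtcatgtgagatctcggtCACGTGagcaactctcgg

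Ctsd (chr7:142387908-142387937, minus strand): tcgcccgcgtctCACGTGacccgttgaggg

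Ifi30 (chr8:70766842-70766871, minus strand): atccaaaaacttCACGTGaccagacatgct

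Atp6v1a (chr16:44139373-44139402, minus strand): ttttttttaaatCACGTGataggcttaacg

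The sequences bound by interferon-activated factors were searched in the same windows. GAAA followed, after any 2 bases, by GAAA, the core of the interferon-stimulated response element, stood in the promoters of Ctss and Lamp1 (6.06% of the member promoters, against 2.98% of all), and TTCNNNGAA, the core of the gamma-activated sequence, in that of Ctsc (3.03% against 7.02%). They are shown for both cathepsins because their groups stood apart in the values below, with the match in capitals. A match is a run of letters and not a measured binding site.

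Ctss (chr3:95526753-95526785, plus strand): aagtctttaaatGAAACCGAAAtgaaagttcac

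Ctsc (chr7:88277837-88277869, plus strand): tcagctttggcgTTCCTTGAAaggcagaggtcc

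Between tumoricidal and control macrophages, none of the 37 members passed the test over all probe sets (limma, Benjamini-Hochberg adjusted p under 0.05), where 0.0644% of the 17074 named genes tested did. All 37 were tested, and none was at the floor on any array. Of 77 member probe sets 76 were tested, the other being at the floor on all arrays, and 0 passed, against 0.0512% of all probe sets tested. At an unadjusted p under 0.05, 2 members were higher in tumoricidal samples, the cathepsin Ctse and the thiol reductase Ifi30, and 0 were lower; over all named genes the shares were 6.11% higher and 2.79% lower. In 6 members (16.2%) every tumoricidal array exceeded both control arrays, against 17.0% of all named genes, and in 0 the reverse held, against 6.51%. The share apart as higher was thus close to that of all genes, and the share apart as lower was below it. The log2 differences ran from -0.25 to 1.09 with a median of 0.28, and 29 of 37 (78.4%) were above 0, where the median of all named genes was 0.13 and 63.0% were above 0. The members were brighter than most genes, with median signals over the arrays from 98.2 to 7097. Among named genes with probe sets above the median signal, the median difference was 0.18. The other shares over all named genes given here are not matched for signal.

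These medians move with the scaling and with single arrays. Without control replicate 1 the members' median was -0.10 (all named genes 0.04), and without control replicate 2 it was 0.56 (all named genes 0.25). Quantile normalization took the members' median to -0.06 and that of all named genes to 0.02, and the deposited scaling took them to 0.05 and -0.07. With quantile normalization 3 members stood apart as higher (8.11%, against 12.9% of all named genes) and 2, Tpp1 and Atp6v1a, as lower (5.41%, against 11.6%). With the deposited scaling 3 were apart as higher (8.11%, against 9.96%) and the same 2 as lower (5.41%, against 15.2%).

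**Figure D1:**
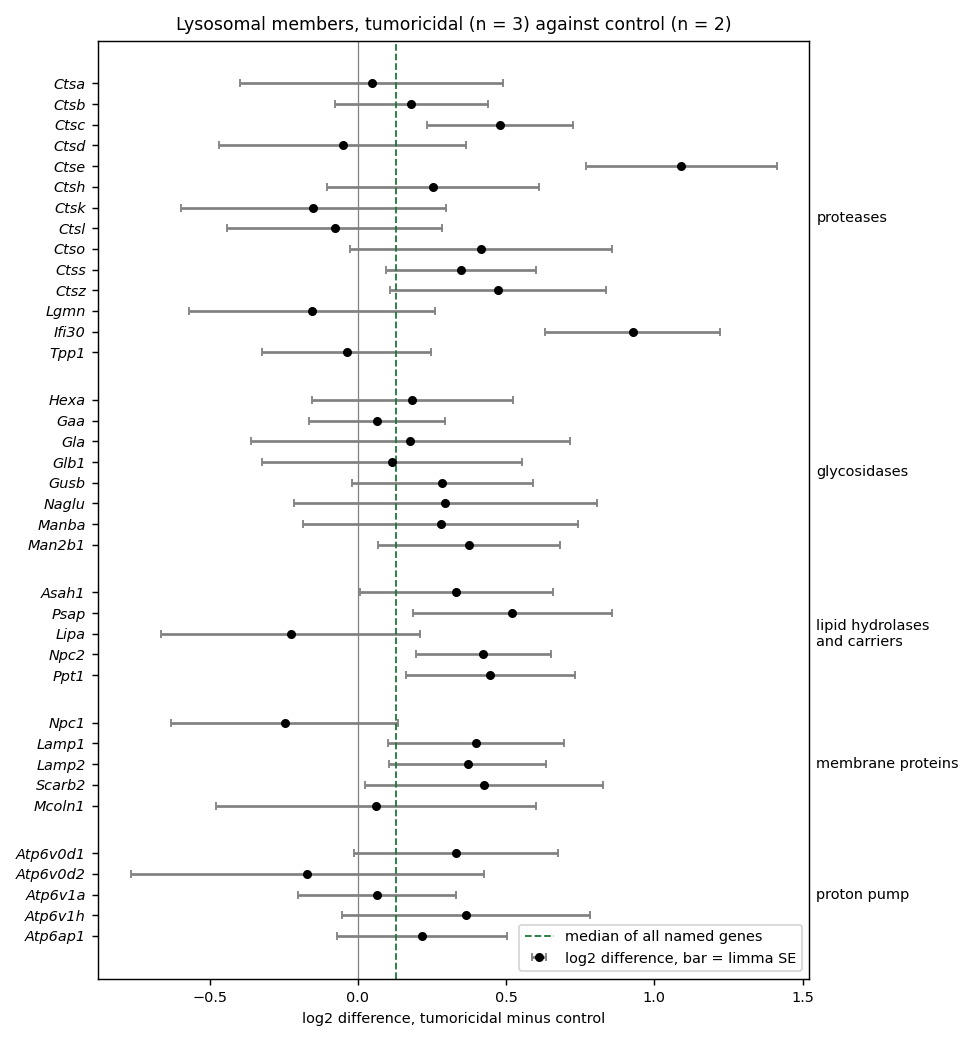
Log2 difference (tumoricidal, n = 3, minus control, n = 2) of each of the 37 members, grouped by class; points are the fitted differences, bars the limma standard error, and the dashed line marks the median of all named genes at 0.13. Ctse (1.09) and Ifi30 (0.93) lie to the right of the other members, which run from -0.25 to 0.52.

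Ifi30 reduces disulfide bonds of proteins in the lysosome so that they can be cut, and is known to be induced by interferon-gamma. Signals of 4831, 4002 and 5641 in the tumoricidal arrays (values here and below follow the replicate number) stood against 2085 and 3028 in the controls. The groups did not overlap, and the lowest tumoricidal array exceeded the higher control array. The mean was 4824 ± 819 (SD, n = 3) against 2556 ± 667 (SD, n = 2), a 1.90-fold difference (log2 0.93, SE 0.30; limma adjusted p = 0.512). The set A arrays alone gave 1.08 and the set B arrays 0.90. The groups stayed apart with quantile normalization (0.60) and with the deposited scaling (0.70). The other Ifi30 probe set, which also carries the symbol Pik3r2 and is dim, differed by 0.96 with groups apart.

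Ctse, an aspartic protease of the endosome with a narrower tissue range than its relative Ctsd, had 424, 526 and 292 in tumoricidal and 200.3 and 178 in control arrays. All 3 tumoricidal arrays were higher, and tumoricidal replicate 3 was nearest to the controls. The mean was 414 ± 117 (SD, n = 3) against 189 ± 15.6 (SD, n = 2), a 2.13-fold difference (log2 1.09, SE 0.32; limma adjusted p = 0.467), with 1.24 from the set A and 0.71 from the set B arrays. Neither the separation nor the unadjusted p under 0.05 held with quantile normalization (0.87) or with the deposited scaling (0.86). A second, dimmer Ctse probe set differed by 0.10, and there the groups overlapped.

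The other 4 members whose groups stood apart were Ctsc, Ctss, Npc2 and Ppt1, picked out after their values were seen. Ctsc, which activates granzymes and neutrophil serine proteases by trimming them, had 7642, 5915 and 7273 against 4755 and 5156 (log2 0.48, SE 0.25; limma adjusted p = 0.751), and 0.50 within either spike-in set. On this probe set its groups stayed apart under both other scalings (0.20 and 0.25). Of the 3 Ctsc probe sets this was the 1 with groups apart. The others differed by 0.25 (-0.03 in set A, 0.63 in set B) and by 0.13. The neutrophil markers S100a8, S100a9 and Cxcr2 and all 3 natural killer cell markers measured were likewise higher on every tumoricidal array, while the neutrophil granule gene Mpo differed by -0.29; their part in the Ctsc and Ctse differences was not tested.

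Ctss, the main protease that degrades the invariant chain of class II molecules, had 8200.1, 6239 and 8150.0 against 5652 and 6094 (log2 0.35, SE 0.25; limma adjusted p = 0.808). Its lowest tumoricidal array stood just above the higher control array, and the difference was 0.08 with quantile normalization. With the deposited scaling it was 0.12 and the groups overlapped. Npc2, a soluble cholesterol carrier, had 5761, 5035 and 5333 against 4074 and 3933 (log2 0.42, SE 0.23; limma adjusted p = 0.763). On this probe set it had the smallest spread among the tumoricidal arrays of all members, 1.14 times from lowest to highest. Another Npc2 probe set had 5591, 3769 and 5410 against 2619 and 3782, and groups stood apart in 2 of the 4 Npc2 probe sets. Ppt1, which removes fatty acyl groups from proteins, had 856, 871 and 979.9 against 532 and 821 (log2 0.45, SE 0.28; limma adjusted p = 0.795), and without control replicate 1 its difference was 0.13. A dimmer Ppt1 probe set differed by -0.27 with the groups apart in the other direction. Npc2 and Ppt1 overlapped between groups with quantile normalization (0.14 for each).

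**Figure D2:**
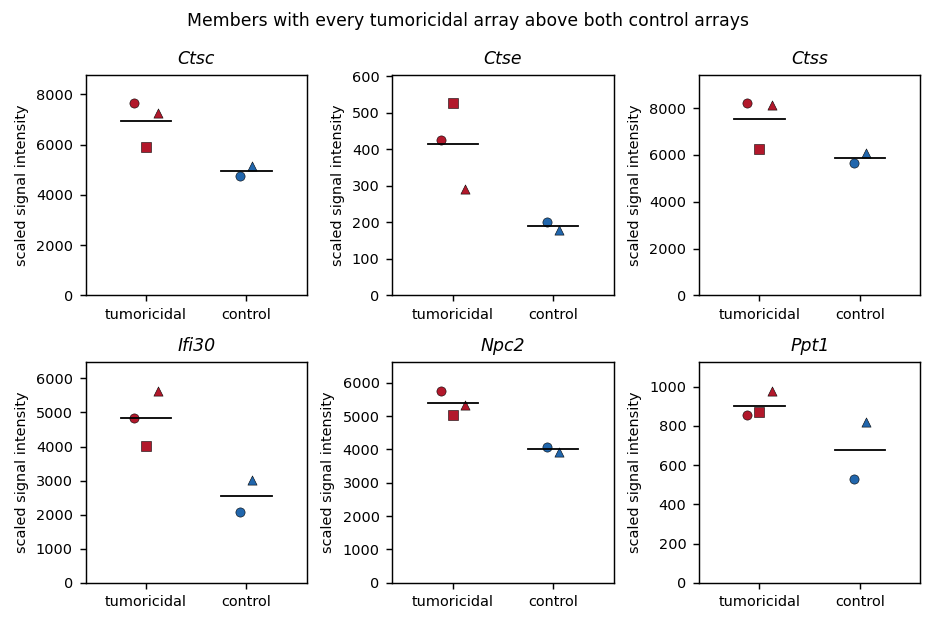
Scaled signal intensity (linear axis from 0) of the 6 members in which every tumoricidal array exceeded both control arrays. Each point is 1 array (red tumoricidal, blue control, triangles spike-in set B, circles and squares set A) and each line a group mean; as a ratio of means, the groups differ most for Ctse (414 against 189) and Ifi30 (4824 against 2556).

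Under the scaling used here the remaining proteases overlapped between groups. Ctsd, the main aspartic protease, differed by -0.05 (95% interval -1.09 to 0.98), the cysteine proteases Ctsl by -0.08 (-0.98 to 0.82) and Ctsb by 0.18 (-0.46 to 0.82). Of the 5 Ctsb probe sets 2 were positive and 3 negative (-0.44 to 0.18). Among the 24 members with several probe sets tested, 9 had differences of both signs. Ctsz, a carboxypeptidase, differed by 0.47 (-0.43 to 1.37), with 6938, 3949 and 6903 against 3443 and 4979. Ctsd had 3298, 2231 and 4728 in tumoricidal and 2618 and 4371 in control arrays, so that both groups held a low and a high array. Lgmn, an asparagine-specific protease that processes cathepsins and antigens, differed by -0.15, Ctsk by -0.15 and Tpp1 by -0.04. Ctsa (0.05), Ctsh (0.25) and Ctso (0.41) overlapped too. A dimmer Ctsa probe set differed by -0.55 and a dimmer Ctso probe set by -0.09.

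All 8 glycosidases, which remove sugars from glycoproteins and glycolipids, had positive differences, from 0.06 (Gaa) to 0.38 (Man2b1), where 63.0% of all named genes did. Groups stood apart in 0 of 8, against 17.0% of all named genes as higher and 6.51% as lower. With quantile normalization the class median was -0.06. Man2b1, an alpha-mannosidase, had 2138, 1751 and 2516 against 1324 and 2002. Naglu, which degrades heparan sulfate, had 218, 143 and 353 against 124 and 265 (log2 0.30, SE 0.51). In both genes control replicate 2 exceeded a tumoricidal array. A second, dimmer Man2b1 probe set differed by -0.64 with the groups apart in the other direction. On the probe set used, Gaa, which digests glycogen, was the steadiest of the class (0.06, 95% interval -0.50 to 0.63). It had 301, 326 and 278 against 294 and 282. A second, dimmer Gaa probe set was less steady at 163, 149 and 252 against 144 and 279, and differed by -0.13.

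Among the lipid hydrolases and carriers, Psap, the precursor of the saposins that lift lipids to their hydrolases, had the largest difference at 0.52 (SE 0.34; limma adjusted p = 0.796). Its signals were 8726, 6267 and 8884 against 4228 and 7097, and control replicate 2 lay within the tumoricidal range. The acid ceramidase Asah1 differed by 0.33. Lipa, which hydrolyses cholesteryl esters, was the member of this class with a negative difference (-0.23), and its 3 probe sets were all negative (-0.43 to -0.23).

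Membrane proteins gave 0.43 for Scarb2, the receptor that carries glucocerebrosidase to the lysosome, 0.40 for Lamp1 and 0.37 for Lamp2. Scarb2 had 832, 726 and 1257 against 492 and 936, and Lamp1 had 4063, 3753 and 4793 against 2538 and 3972. In both, control replicate 1 was the lowest array and control replicate 2 lay among the tumoricidal arrays. A second Scarb2 probe set differed by 0.03, with 683, 574 and 935 against 479 and 1020. Mcoln1, the lysosomal calcium channel, differed by 0.06, and its 3 probe sets ran from -0.91 to 0.24. Npc1, the membrane partner of Npc2 in cholesterol export, differed by -0.25, with 214, 173 and 288 against 192 and 355. The class median was 0.37, and 0.04 with quantile normalization.

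No proton pump subunit of the 5 had groups apart under the scaling used here, where 17.0% of all named genes were apart as higher and 6.51% as lower. Atp6v1h differed by 0.37 (95% interval -0.67 to 1.40), Atp6v0d1 by 0.33 (-0.52 to 1.18), the accessory subunit Atp6ap1 by 0.22 and Atp6v1a, which binds ATP, by 0.06. With quantile normalization (-0.30) and with the deposited scaling (-0.16) Atp6v1a stood apart as lower. Its second probe set differed by -0.08 under the scaling used here. Atp6v1h had 507, 340.5 and 598 against 256 and 519, and Atp6v0d1 had 1313, 1007 and 1529.5 against 772 and 1309. In both genes the groups overlapped through control replicate 2. Atp6v0d2, a form of the d subunit known from osteoclasts and some macrophages, had 98.2, 71.0 and 206 against 80.8 and 199.8 (log2 -0.17, SE 0.60). Its array values differed more within groups than between them, with 2.90 times from the lowest to the highest tumoricidal array, the widest spread among the members. A second Atp6v0d2 probe set differed by 0.15. The class median of 0.22 became -0.12 with quantile normalization.

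The order of the arrays was the pattern most members shared. In 30 of 37 members (81.1%) both set B arrays were the highest of their group, that is, tumoricidal replicate 3 exceeded the other 2 tumoricidal arrays and control replicate 2 exceeded control replicate 1; the same held for 34.1% of all named genes. Quantile normalization gave 26 of 37 (70.3%, against 20.3%), and the deposited scaling 23 of 37 (62.2%, against 16.6%). It held for 10 of 14 proteases, 7 of 8 glycosidases, 3 of 5 lipid genes, 5 of 5 membrane proteins and 5 of 5 pump subunits. On the probe sets used, Ctse, Npc2 and Gaa were the 3 members with control replicate 1 above control replicate 2. Other probe sets of all 3 had control replicate 2 higher, at 65.1 against 19.6 (Ctse), 3782 against 2619 and 419 against 208 (Npc2), and 279 against 144 (Gaa). A dim Npc2 probe set had control replicate 1 higher (59.5 against 57.3). In 29 of 37 members the log2 gap between the control arrays was larger than the difference between the groups. This count was not made for all named genes, so it is not a trait of the members. A gap between single arrays also varies more than a difference of group means. Among the members, control replicate 2 over control replicate 1 had a median ratio of 1.65, up to 2.60 for Mcoln1.

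Each gene's log2 signal was set against its mean over the 5 arrays, and the median over the members was 0.09, -0.20 and 0.40 on the tumoricidal arrays, then -0.52 and 0.20 on the controls. The same medians over all named genes were 0.04, -0.04, 0.14, -0.20 and 0.01. With quantile normalization the members' medians were -0.03, -0.14, 0.10, -0.14 and 0.22, so that tumoricidal replicate 3 and control replicate 2 stayed the highest of their groups. Tumoricidal replicate 3 and control replicate 2 also had the highest macrophage marker sums within their groups, 30940 and 25730, although tumoricidal replicate 1, in set A, reached 30340. These sums include Cd68, itself a lysosomal membrane protein, with 3298, 1885 and 4219 on tumoricidal and 2133 and 3999 on control arrays. The lead of tumoricidal replicate 3 over replicate 1 was smaller in the sum than in Cd68 alone. Whether the spike-in set or the share of macrophages had a part in the order of the arrays was not tested.

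**Figure D3:**
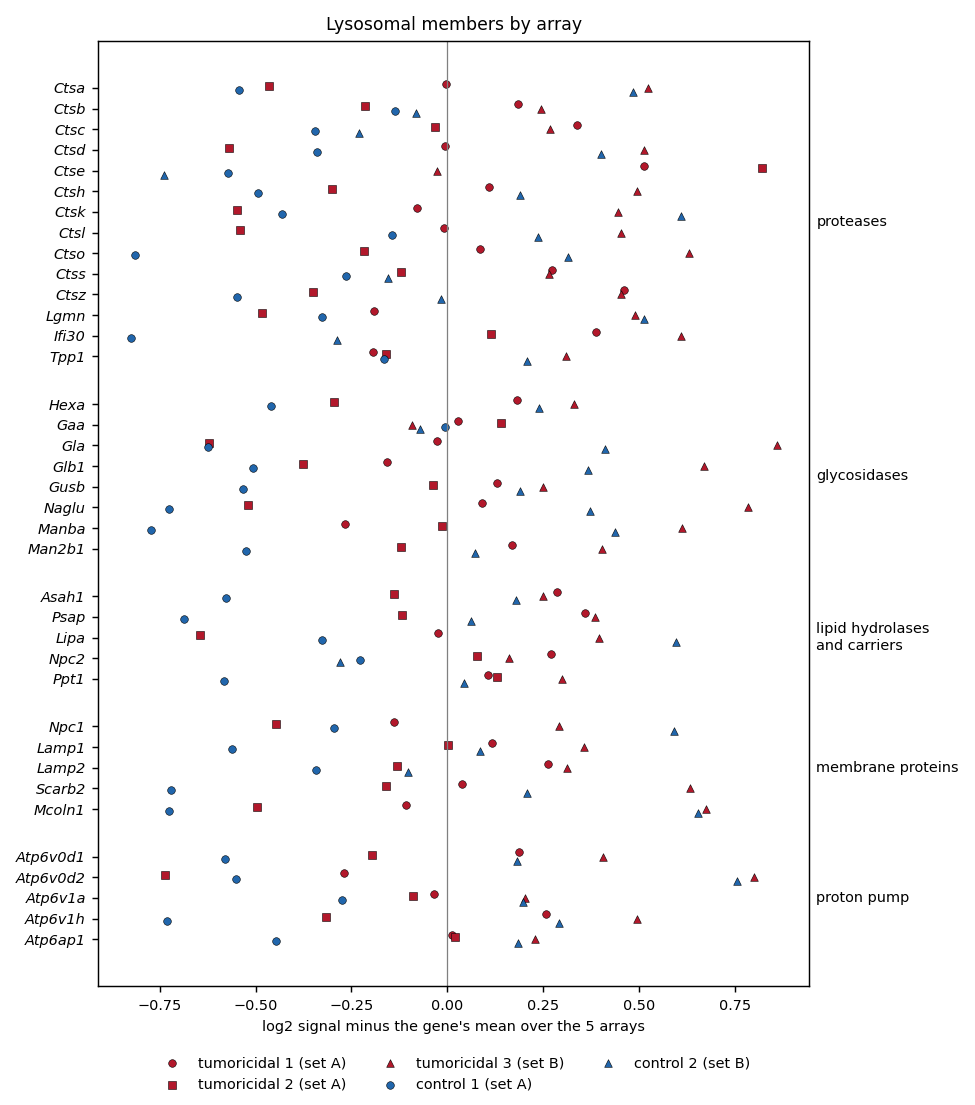
Log2 signal of each member on each of the 5 arrays minus the mean of that gene over the arrays; red points are tumoricidal, blue control, and triangles mark set B. In 30 of 37 members both triangles are the highest points of their colour, and red and blue points overlap in all members but 6.

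**Figure D4:**
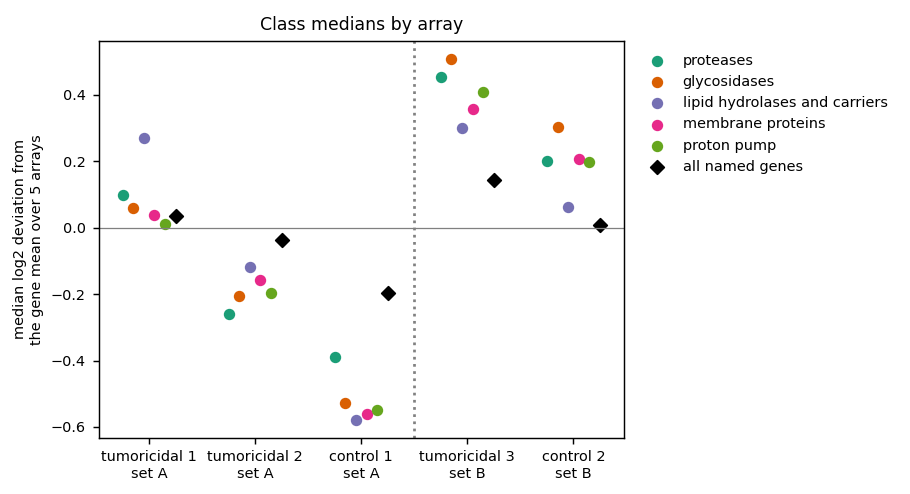
Median log2 deviation of each of the 5 classes (coloured points) and of all named genes (black diamonds) on each array, ordered by spike-in set. All 5 classes are lowest on control replicate 1 (-0.58 to -0.39) and highest on tumoricidal replicate 3 (0.30 to 0.51).

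Within the spike-in sets, where tumoricidal and control arrays of like spike-in signal are compared, the members' median difference was 0.41 in set A (all named genes 0.20) and 0.22 in set B (0.07). In 30 of 37 members (81.1%) the difference was above 0 within both sets, against 40.8% of all named genes. That count also rests on the scaling: it was 10 of 37 (27.0%, against 27.2%) with quantile normalization and 15 of 37 (40.5%, against 20.9%) with the deposited scaling. With the spike-in set as a block the members' median was 0.36, Ifi30 differed by 1.0 (limma adjusted p = 0.344) and Ctse by 1.01 (adjusted p = 0.381).

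The 12 members with CACGTG in the promoter window and the 18 without it were set side by side. Their median differences between groups were 0.06 and 0.36. The median deviations of those with CACGTG were -0.01, -0.47 and 0.52 on tumoricidal, then -0.52 and 0.37 on control arrays, and of those without 0.15, -0.13, 0.36, -0.49 and 0.18. Ifi30 was the 1 member of the 12 with groups apart, and 4 of the 18 were apart (Ctsc, Ctss, Npc2 and Ppt1), where 17.0% of all named genes were. These 2 lists were formed after earlier results were known, and no test was made of the difference between them.

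Other genes of the compartment, from 5 lists of 81 genes, of which 70 had a named probe set and 69 were tested, gave 0 past the adjusted threshold. At an unadjusted p under 0.05, 10 were higher (14.5%, against 6.11% of all named genes) and 2 lower (2.90%, against 2.79%), and the median difference was 0.31. The differences of 6 of these, Ctsw, Cst7, Naaa, Clcn7, Tfec and Plbd1, were larger than that of any member. Among cathepsin inhibitors, Cst7, cystatin F, which reaches the lysosome and blocks cysteine cathepsins, had 95.4, 109.6 and 98.9 against 29.3 and 26.2 (log2 1.87, SE 0.23; limma adjusted p = 0.105). The gap between the groups was far wider than the spread within either, while Cst3 and Cstb differed by 0.33 and 0.36.

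Among 24 other hydrolases, Naaa, an amidase of lipid mediators, had 2681, 2286 and 2500.2 against 855 and 1022 (log2 1.41, SE 0.24; limma adjusted p = 0.195), and Plbd1, a phospholipase B-like protein, differed by 1.15. Ctsw, a cathepsin known from natural killer and cytotoxic T cells, had 39.4, 47.1 and 23.6 against 5.18 and 8.20 (log2 2.43; adjusted p = 0.181). Ncr1, a natural killer cell receptor, ran alongside at 81.1, 38.8 and 24.1 against 9.72 and 7.60. The T-cell markers Cd3e, Cd3g and Cd247 also had groups apart as higher, while Cd3d overlapped. The part of natural killer and T cells in the Ctsw and Cst7 values was not tested. Of the 24 hydrolases 2 were lower at an unadjusted p under 0.05 (8.33%, against 2.79% of all named genes). They were singled out after their values were seen. These were Acp5, the tartrate-resistant acid phosphatase (125, 102 and 173 against 242 and 418, log2 -1.28), and Dnase2a, the lysosomal DNase (71.1, 78.3 and 73.4 against 133 and 134, log2 -0.85).

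Of 18 other membrane proteins 4 were higher at an unadjusted p under 0.05 (22.2%, against 6.11% of all named genes). Clcn7, the chloride-proton exchanger of the lysosome, had 373, 324 and 487 against 136 and 188 (log2 1.28; limma adjusted p = 0.342). The sialomucin Cd164 differed by 0.96, Tmem192 by 0.996 and, named after its values were seen, the phagosomal metal transporter Slc11a1 by 0.87. Of 12 other pump subunits all had positive differences under the scaling used here (63.0% of all named genes did), but 6 with quantile normalization and 6 with the deposited scaling. Their median was 0.29, and Atp6v0a2 (0.70) was the 1 below an unadjusted p of 0.05 (8.33%, against 6.11%). Of 11 sorting receptors and regulators that 1 (9.09%) was Tfec, a relative of TFEB found in macrophages. It had 682, 748 and 1002 against 283 and 418 (log2 1.22, limma adjusted p = 0.382). Tfeb itself differed by 0.15 and Tfe3 by 0.30. The directions of the 12 genes at an unadjusted p under 0.05 were the same with quantile normalization and with the deposited scaling, and their groups stood apart in both, except for Atp6v0a2 with the deposited scaling.

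**Figure D5:**
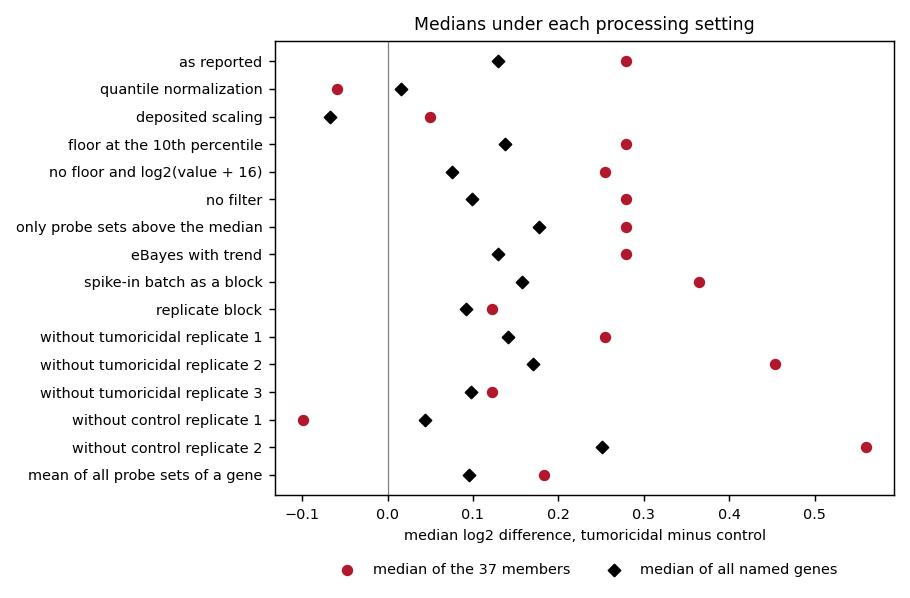
Median log2 difference (tumoricidal minus control) of the 37 members (red points) and of all named genes (black diamonds) under each processing setting. The members' median is lowest, -0.10, when control replicate 1 is left out and highest, 0.56, when control replicate 2 is left out; it is -0.06 with quantile normalization.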

How the data were processed

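The values are linear signal intensity per probe set as the authors deposited them, from 5 arrays of biotinylated cRNA made from 6 µg of total RNA per the labels' protocols. Which software and scaling made them is not given in the sources used here. Array means trimmed by 2% at either end were all 100.0 and array medians spanned 1.47 times, so arrays were rescaled to the median of their medians. After removal of 64 control probe sets, signals under the pooled 25th percentile (4.79) were set to that floor before log2, and 3984 probe sets with no array above it were not tested. The other 41053 were compared with limma 3.58.1 in R 4.3.3 (lmFit, eBayes without trend, two-sided, all 5 arrays, no covariate). A gene's value is its 1-symbol probe set with the highest mean log2; several-symbol probe sets of members are given apart. Deviations from a gene's mean, differences within the spike-in sets, orders of arrays and motif counts (Python 3.11.15) are descriptions. The test was also run on simulated data with independent noise. That noise held no shift shared by the genes of an array, so the run does not bear on the array order.

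The members and lists were chosen with earlier results of these data known. Array values are given for members at an unadjusted p under 0.05, the 2 per class with the largest absolute difference, and, added after their values were seen, those whose groups stood apart and others named as examples; up to 3 genes per other list are named by lowest unadjusted p, and Acp5, Dnase2a, Slc11a1 and genes given for comparison were added after their values were seen. All 37 symbols matched RefSeq through the Entrez identifier. Promoter sequences for Ctsb, Ctse, Ctsh, Asah1, Npc1, Atp6v0d2 and Atp6v1h were not used here. Alternatives were other scalings, floors, filters, a trend, blocks for spike-in set or replicate number, each array left out, and the mean of a gene's probe sets.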

Additional observations from a re-analysis of the deposited data

How the results depend on the processing

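No member passed the adjusted threshold under any of the 15 alternatives. Over all probe sets 21 passed, against 71 with log2(value + 16), 62 with no filter, 193 above the median signal, 65 with a trend, and 0 with the floor at the 10th percentile, with the spike-in set as a block and with a replicate block; with each array left out the count was 0 to 0. Members higher at an unadjusted p under 0.05 numbered 2, where 2021 of all 41053 probe sets tested were higher. They numbered 1 with quantile normalization (all probe sets 1723 of 40967) and with the deposited scaling (1172 of 41035). The replicate block (1103 of 41053) and the mean of probe sets (1110 of 17074 genes) also gave 1. With log2(value + 16) they numbered 4 (2641 of 45037), and with no filter 4 (2685 of 45037). In fits with 1 control array left, that array is assumed to vary like the others.

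The members' median ran from -0.10 to 0.56 with an array left out (proteases -0.12 to 0.47, glycosidases -0.21 to 0.66, lipid genes 0.13 to 0.71, membrane proteins -0.04 to 0.72, pump -0.15 to 0.53). Among all probe sets at an unadjusted p under 0.05, 61.6% were higher, against 50.5% with quantile normalization and 31.9% with the deposited scaling. Same-numbered arrays of the groups had correlations of deviations of 0.02 and -0.24, so the numbers were not taken to pair them; the replicate block gave the members a median of 0.12.

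Of 37 members, 27 changed sign under some alternative; the cause was not tested. Quantile normalization gave -0.31 for Ctsa, -0.082 for Ctsb, -0.11 for Ctsh, -0.18 for Hexa, -0.15 for Gaa, -0.059 for Gla, -0.10 for Glb1, -0.071 for Gusb, -0.025 for Asah1, -0.094 for Mcoln1, -0.018 for Atp6v0d1, -0.30 for Atp6v1a and -0.12 for Atp6ap1. The deposited scaling gave -0.18 for Ctsa, -0.048 for Ctsb, -0.046 for Hexa, -0.17 for Gaa, -0.052 for Gla, -0.11 for Glb1, -0.17 for Mcoln1, -0.16 for Atp6v1a and -0.012 for Atp6ap1. The spike-in block gave 0.078 for Ctsd, 0.018 for Ctsl, 0.035 for Tpp1 and 0.047 for Atp6v0d2. The replicate block gave -0.21 for Ctsa, -0.22 for Gla, -0.20 for Glb1, -0.038 for Naglu, -0.27 for Mcoln1 and -0.023 for Atp6v1a. The mean of probe sets gave -0.25 for Ctsa, -0.11 for Ctsb, -0.033 for Gaa, -0.13 for Man2b1, -0.20 for Mcoln1 and -0.0093 for Atp6v1a.

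With each array left out, the range was -0.47 to 0.56 for Ctsa, -0.42 to 0.32 for Ctsd, -0.089 to 0.60 for Ctsh, -0.67 to 0.37 for Ctsk, -0.32 to 0.18 for Ctsl, -0.15 to 0.98 for Ctso, -0.57 to 0.27 for Lgmn and -0.22 to 0.15 for Tpp1. It was -0.17 to 0.53 for Hexa, -0.34 to 0.70 for Gla, -0.32 to 0.55 for Glb1, -0.077 to 0.65 for Gusb, -0.25 to 0.84 for Naglu, -0.33 to 0.88 for Manba, -0.047 to 0.71 for Asah1 and -0.69 to 0.24 for Lipa. It was -0.69 to 0.20 for Npc1, -0.037 to 0.89 for Scarb2, -0.63 to 0.75 for Mcoln1, -0.050 to 0.71 for Atp6v0d1, -0.82 to 0.48 for Atp6v0d2, -0.17 to 0.30 for Atp6v1a, -0.15 to 0.88 for Atp6v1h and -0.099 to 0.53 for Atp6ap1. Ifi30 (0.66 to 1.20) and Ctse (0.90 to 1.32) stayed above 0.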
